A study of Mus musculus with 10 samples.

Results

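Voltage-gated calcium, sodium and potassium channel genes were described in mixed neuron-glia cultures before and after depolarization. The group held 33 genes, chosen by function and without use of any measured value: pore subunits of high-voltage-activated and T-type calcium channels, alpha2delta and beta subunits of calcium channels, pore and beta subunits of sodium channels, pore subunits and auxiliary proteins of potassium channels, and 1 HCN channel. A transcript was matched for 27 of the 33 genes, among 13189 genes with a matched transcript in all. No transcript was matched for Cacna2d3, Scn3a, Scn3b, Kcnq3, Kcnma1 and Kcnab1, and these genes are not described further.

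Cells from the cortex of newborn (P0) FVB mice, with no transgene or treatment named other than those given here, were grown for 7 days. Untreated cultures 1, 2 and 3 were compared with KCl cultures 4 and 5, in which KCl was raised to 55 mM over the last 3 h. Cycloheximide, which stalls ribosomes, was given to every culture at 100 ug/ml for 7 min before lysis. From each culture an RNAseq library, which measures transcript abundance, and a ribosome footprinting (RF) library, which measures fragments of mRNA covered by ribosomes, were used. Translational efficiency (TE) was the RF level on the coding sequence (CDS) over the RNAseq level of the same culture, both as RPKM, which are reads scaled by the length of the feature and the size of the library. The pups were of both sexes, and how many pups gave each culture was not given in the sources used here, so p-values measure the spread between these cultures.

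Voltage-gated channels open when the membrane depolarizes. Sodium channels carry the upstroke of the action potential, potassium channels end it and set the firing pattern, and calcium channels turn it into calcium entry that drives transmitter release and gene expression. The pore of a sodium or calcium channel is 1 long protein with repeated domains, whereas a potassium channel pore is built from several shorter subunits. Alpha2delta and beta subunits bring the calcium channel pore to the membrane and tune it. Prolonged depolarization with KCl opens L-type calcium channels and is a standard way to induce activity-dependent genes.

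Both cell classes of the culture were present by their markers. The summed normalized RNAseq level of 12 neuron markers lay between 624 and 875 CPM (reads scaled by library size alone) in untreated and between 812 and 860 in KCl libraries, against 9950 to 10900 and 8940 to 9250 CPM for 8 astrocyte markers. Fos and Nr4a2, which depolarization induces, rose in RNAseq by 1.65 and 5.23 on the log2 scale (edgeR, adjusted p = 1.09e-10 and 1.3e-27). RNAseq libraries held between 3056286 and 3629959 reads and RF libraries between 1463654 and 7719915 reads, of which untreated culture 3 and KCl culture 4 had the fewest. In these bulk libraries fewer cells of a type and less RNA per cell cannot be told apart.

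Potassium channel pores share a signature sequence. Their selectivity filter, the stretch that lets potassium but not sodium pass, ends in glycine-tyrosine-glycine or glycine-phenylalanine-glycine. The 30 coding bases around these 3 codons, which stand in capitals, are shown 5′ to 3′ for 7 potassium channel pore genes (GENCODE M21 transcripts, GRCm38), because reads of this length decide whether paralogs can be told apart.
Kcna1: atgaccactgtgGGATACGGTgacatgtac
Kcna2: atgacaactgtaGGCTATGGAgacatggtt
Kcna4: atgacaactgtgGGCTATGGGgacatgaag
Kcnc1: atgacgacactgGGCTATGGAgacatgtat
Kcnd2: atgacaacactgGGGTATGGCgacatggta
Kcnd3: atgactacactgGGATATGGAgacatggtg
Kcnh2: ctcaccagcgtgGGCTTTGGCaatgtctct
Even here no pair was identical. The closest pair, Kcnd2 and Kcnd3, differed at 4 of 30 bases, Kcna2 and Kcna4 at 5, and Kcna1 and Kcna2 at 8. Kcnh2, which codes for the pore of the HERG-type current, has phenylalanine in the filter and differed from the Kcna, Kcnc and Kcnd genes at 13 to 16 bases.

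Sodium channels shared more of their sequence. Of all 28-base windows of the CDS, about the length of a footprint, 15.4% in Scn2a and 11.96% in Scn1a also occurred in another gene, chiefly in each other. The share was 3.58% in Kcnc1, 1.64% in Cacna1g, 1.36% in Cacna1h and under 1% in each of the other members. Only matched transcripts were searched, so Scn3a and full-length Scn8a were not compared and the sodium channel shares may be too low. The authors took degenerate sequences out of the transcriptome before alignment but kept reads that map to several transcripts. The values of these sodium channel genes are therefore uncertain.

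Channel mRNAs were weakly measured. A minimum mean of 10 reads per library was met by 22 members in RNAseq, by 24 in RF and by 21 in both. Scn1a had between 1 and 4 RNAseq reads and between 4 and 8 footprints per library, and Scn8a, both sodium channel pores, between 0 and 3 reads and between 0 and 7 footprints. The only Scn8a transcript matched was a 3-exon form with a CDS of 309 nt. The full-length channel was thus not measured, and these counts do not give its level. Scn2b had 4 to 15, Kcna4 2 to 17 and Hcn2, whose channel opens on hyperpolarization, 3 to 12 RNAseq reads, and these 3 genes passed for RF alone, whereas Kcna1 passed for RNAseq alone. By the study's stricter filter of an RPKM of 10 in both assays, 3 members remained: Cacnb3, Kcnd3 and Kcnip3.

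Before KCl, the median RNAseq level of the 22 members was 2.04 RPKM, against 8.59 RPKM over the 9728 genes tested, and 3 members lay above that median. The highest were Cacnb3, a calcium channel beta subunit, at 18.2 ± 3.01 RPKM (SD, n = 3), Kcnip3, a calcium-binding partner of Kcnd channels, at 17.0 ± 0.768 and Kcnd3, a pore of the A-type potassium current, at 12.4 ± 0.909. Kcna1, a pore of delayed low-threshold current, followed at 7.41 ± 0.582 RPKM and Kcnc1, a pore of fast-spiking neurons, at 6.97 ± 0.459. Cacnb3 and Kcnip3 overlapped in their cultures, as did Kcna1 and Kcnc1, whereas Kcnd3 lay apart from both pairs. At the low end Scn2a had 0.623 ± 0.426 RPKM and Kcna2, another low-threshold pore, 0.684 ± 0.443, with spreads that overlapped.

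In RF the order was different. The alpha2delta subunit Cacna2d1 had the highest level, at 28.6, 27.7 and 32.9 RPKM in untreated cultures 1, 2 and 3 and 28.8 and 30.5 in KCl cultures 4 and 5, and its 5 values lay apart from those of all other members. Kcnip3 followed at 17.8 ± 1.65 and Kcnd3 at 12 ± 1.53 RPKM. Of the members, Cacna2d1 and Kcnip3 lay above the median of 16.5 RPKM over the 9403 genes tested, and the members' median was 3.58. Kcnh2 was lowest at 0.953 ± 0.199 RPKM.

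**Figure D1:**
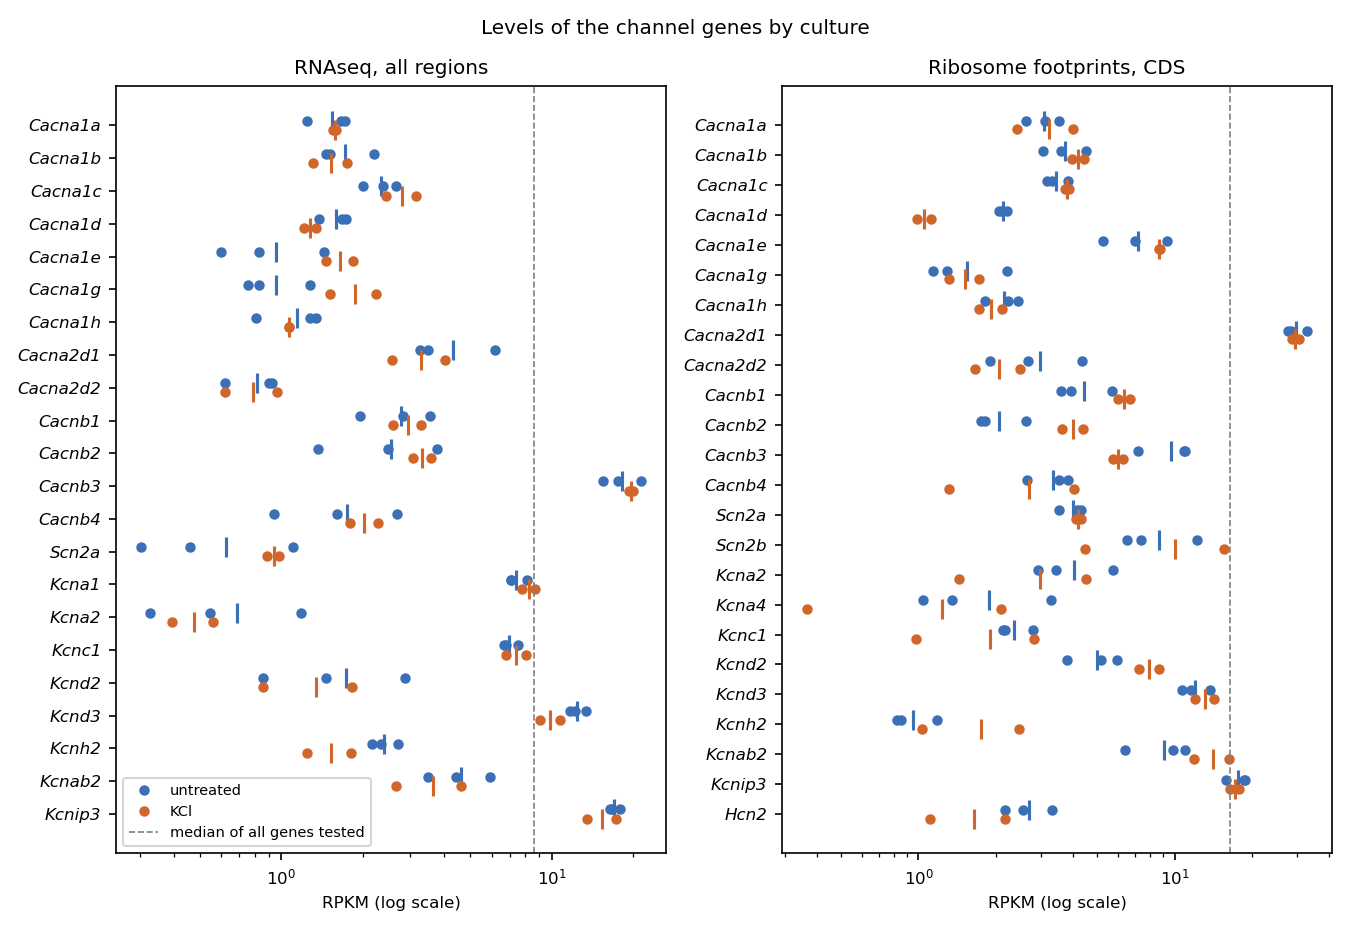
RNAseq level on all regions of the transcript (left, 22 genes) and footprint level on the CDS (right, 24 genes) of channel genes above the minimum, in RPKM on a log axis. Each point is a culture (3 untreated, 2 KCl), ticks are means, and the dashed lines are the untreated medians of all genes tested, 8.59 and 16.5 RPKM; most channel genes lie to the left of both.

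TE of the 21 members with both measures spanned 26.2-fold, from 0.342 to 8.95, and it was not set apart as a group: the median was 2.00 against 2.05 over 8961 genes, with 10 members above and 11 below. By role, the medians were 5.56 for 2 alpha2delta genes, 2.08 for 5 high-voltage-activated calcium pores, 1.90 for 2 T-type pores, 1.59 for 2 potassium auxiliary proteins, 1.28 for 4 calcium beta subunits and 0.977 for 5 potassium pores, and the ranges of most roles overlapped. Single cultures varied, with a members' median of 1.61, 1.57 and 2.76 in untreated cultures 1, 2 and 3. Culture 3, with the highest median, had a shallow RF library, but RNAseq reads of some members were few as well. There were 24 for Cacna1e and 12 for Kcna2 in culture 3, and 9 for Scn2a in culture 2. The cause of the variation was not tested.

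A calcium, a sodium and a potassium channel pore headed the order. Cacna1e, the pore of the R-type calcium current, had a TE of 4.86, 6.32 and 15.7 in untreated cultures 1, 2 and 3 and of 4.70 and 6.01 after KCl. Scn2a, the pore of the early axonal sodium current, had 3.20, 14.2 and 9.07, and 4.38 and 4.63. Kcna2 had 2.48, 6.33 and 17.5, and 3.66 and 8.06. In all 3 genes 1 untreated culture was far above another, and their means of 8.95, 8.82 and 8.78 could not be ordered. These values also rest on the RNAseq length used. With RNAseq reads on the CDS alone over the CDS length, the TE of Kcna2 was 1.15, that of Cacna1e 4.59 and that of Scn2a 13.5, on a scale whose median was 1.07 over all genes and 0.805 over the members. The annotated 3′UTR of Kcna2 made up 81.2% of its transcript and held 56.2% of its RNAseq reads.

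The low end was tighter. Kcnc1 had a TE of 0.289, 0.316 and 0.422 in untreated cultures 1, 2 and 3, and of 0.416 and 0.121 after KCl. Kcnh2 had 0.505, 0.315 and 0.379, and 0.836 and 1.36. Cacnb3 had 0.705, 0.335 and 0.624, and 0.314 and 0.294. Kcnc1 stood at percentile 1.40, Kcnh2 at 2.07 and Cacnb3 at 4.34 of all genes tested. All untreated values of Kcnc1 and Kcnh2 lay below those of the next member, Cacnb2 (0.702, 1.28 and 0.734), whereas Cacnb3 overlapped with it. All 9 untreated values lay below the lowest untreated value of Kcnd3 (0.799). With CDS reads alone Kcnc1 was at 0.169, Kcnh2 at 0.153 and Cacnb3 at 0.650, so the first pair stayed lowest and Cacnb3 moved close to the members' median.

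**Figure D2:**
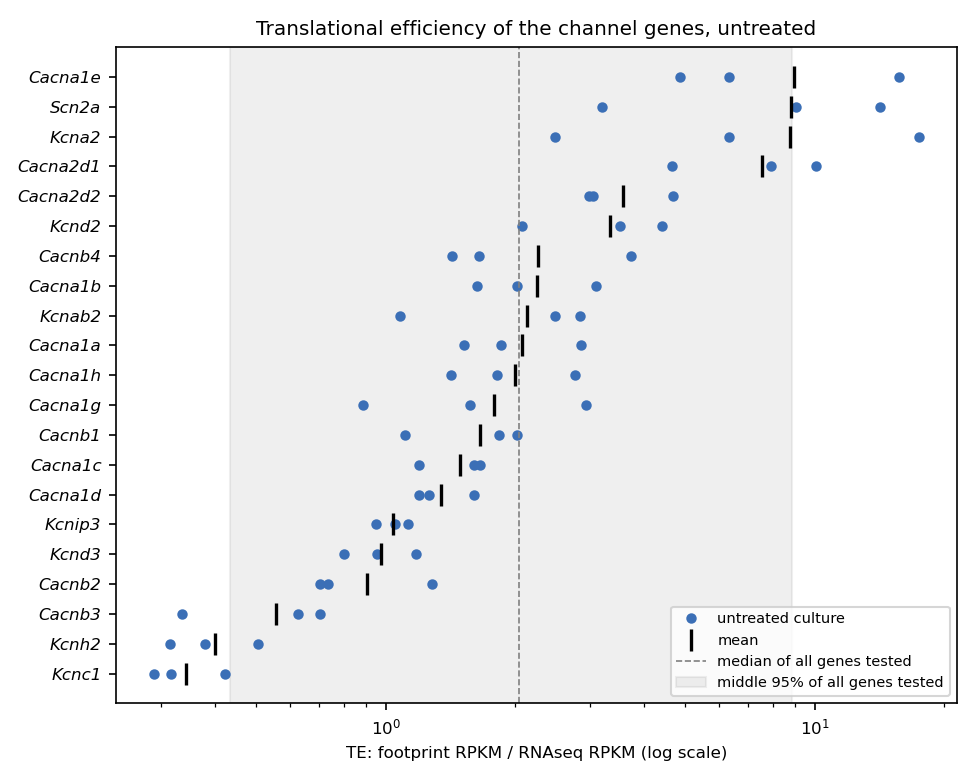
TE of the 21 channel genes measured in both assays in the 3 untreated cultures, as footprint RPKM over RNAseq RPKM on a log axis. Points are cultures, black ticks means, the dashed line the median of all genes tested (2.05) and the grey band the range that holds the middle 95% of them (0.435 to 8.86); Kcnc1 and Kcnh2 lie left of the band, and Cacna1e at its right edge.

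Footprints on the 5′UTR formed a larger part of the total in some potassium channel genes than in most others. Over the 9403 genes with RF data the median share of 5′UTR footprints, of those on the 5′UTR and CDS together, was 4.10% in untreated cultures. It was 9.61% over the 24 members, of which 4 had more than 25%, as did 7.87% of all genes. In the 3 untreated cultures together 60 Kcnc1 reads fell on the 5′UTR and 52 on the CDS, a share of 53.6%, and 1.35% of all genes had more than 50%. Kcna2 had 33.3%, Kcna4 and Kcnab2, a cytoplasmic partner of Kcna channels, each had 27.6%, and below the minimum Kcna1 had 56.6%. At the other end Cacna1b, the N-type pore, and Cacnb2 had none, with 369 and 66 footprints on the CDS. These shares were counted with no test and were not scaled by length, and the genes with the largest shares have long 5′UTRs. Kcnc1 has 1181 nt of 5′UTR beside 1536 nt of CDS, Kcna1 1072 beside 1488 and Kcna4 1212 beside 1965. Kcna2 has 681 beside 1500 and Kcnab2 527 beside 1104. The part of length in the shares was not tested.

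Transcripts of the members were long. The 21 genes had a median CDS of 3276 nt and 5′UTR of 394 nt, against 1479 and 185 nt over all genes tested. Of the 20 with an annotated 5′UTR, 18 had at least 1 upstream AUG, as did 52.0% of genes, and the largest numbers were 18 in Cacna1e and 13 in Cacnb4. Cacna1e, with 18 upstream AUGs, had a TE of 8.95, and Cacnb4, with 13, a TE of 2.27. Kcnd3 and Cacnb3, which had none, had a TE of 0.977 and 0.555. The start codon is shown for genes at both ends of the TE order and for Kcna1, which has no TE value, with 9 bases before it and 1 after, the ATG in capitals (GENCODE M21, GRCm38).
Cacna1e: tgcatcactATGg
Scn2a: gatgaaaagATGg
Kcna2: gccccaattATGa
Cacna2d1: atcgcgaagATGg
Cacnb3: gactcccccATGt
Kcnh2: gggctcaggATGc
Kcnc1: ggcgccgcgATGg
Kcna1: gctttcatcATGa
A or G at the third base before the ATG was present in 15 of 20 members, against 86.4% of 8849 genes, and G directly after it in 14 of 20, against 52.3%. Cacnb3 had neither and Kcnc1 had both, and both genes were at the low end of TE. A link of upstream AUGs or start context with TE was not tested.

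**Figure D3:**
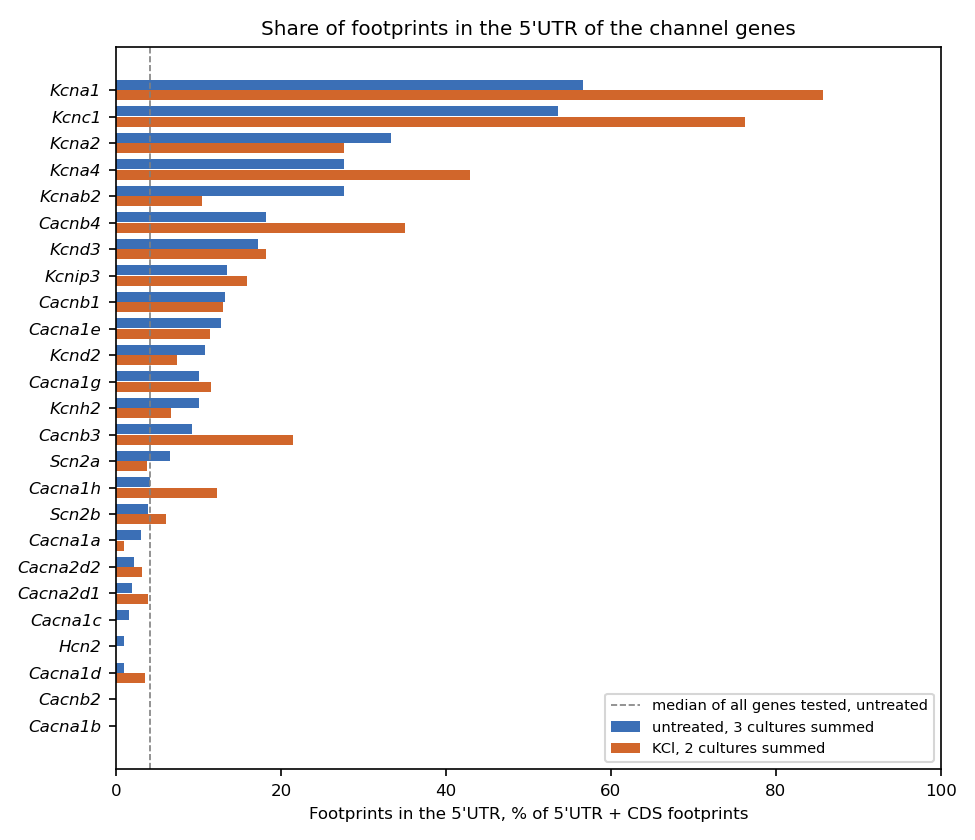
Footprints on the 5′UTR as a percentage of those on the 5′UTR and CDS, for 24 channel genes above the RF minimum and Kcna1, with the reads of the 3 untreated (blue) or the 2 KCl (orange) cultures summed. The dashed line is the untreated median of all genes tested (4.10%); Kcna1 (56.6%) and Kcnc1 (53.6%) are the 2 genes drawn above 50% in untreated cultures.

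Few channel mRNAs were called as changed after KCl. Most members were weakly counted and not matched for depth with all genes, here or in RF and TE below, which limits such calls. In RNAseq 2 of 22 members rose and none fell (edgeR quasi-likelihood test, adjusted p under 0.05), against 13.9% of the 9728 genes that rose and 11.9% that fell. The members' median log2 change was -0.01 and that of all genes -0.02, with 11 members above and 11 below 0. Before adjustment 3 members of 22 had a p under 0.05, as did 36.7% of all genes, and DESeq2 called none of the members. All 22 changes were smaller than 1 on the log2 scale, with standard errors between 0.16 and 0.46. With library totals in place of TMM the median of all genes was -0.16, and 959 of 2779 calls were higher, against 1349 of 2511.

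The members that rose were both calcium channel pores. Cacna1e (chr1:154392519-154725920 in GRCm38, minus strand, 47 exons) was at 18.3, 10.5 and 7.59 CPM in untreated cultures 1, 2 and 3 and at 23.5 and 18.5 CPM in KCl cultures 4 and 5. The groups did not overlap, but untreated culture 1 was close to KCl culture 5. The log2 change was 0.78 ± 0.29 (SE, edgeR adjusted p = 0.0384). The call was lost with DESeq2 (adjusted p = 0.132), with library totals (0.103), with RNAseq reads on the CDS alone (0.0552) and without culture 2, 3, 4 or 5 (0.0848, 0.222, 0.295 and 0.0569).

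Cacna1g (chr11:94408391-94474100, minus strand, 38 exons), a pore of the T-type current that opens at small depolarizations, was at 10.8, 6.92 and 6.32 CPM in untreated cultures 1, 2 and 3 and at 18.9 and 12.6 CPM in KCl cultures 4 and 5. The groups did not overlap, and the log2 change was 0.96 ± 0.32 (edgeR adjusted p = 0.0185), a 1.95-fold rise from 8.00 ± 2.41 to 15.8 ± 4.44 CPM (SD, n = 3 and 2). The call was lost with DESeq2 (adjusted p = 0.0744), with CDS reads alone (0.188) and without culture 3 or 4 (0.0814 and 0.344). The other T-type pore, Cacna1h, had a log2 change of -0.10 ± 0.34 (adjusted p = 0.867).

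Footprints of both genes gave no call. Cacna1e had 41.4, 30.9 and 55.3 CPM on its CDS in untreated and 51.2 and 51.7 CPM in KCl cultures, a log2 change of 0.37 ± 0.18 (adjusted p = 0.114). Cacna1g had 8.12, 9.25 and 15.8 CPM and 9.37 and 12.4 CPM, a change of 0.20 ± 0.30 (adjusted p = 0.653). Both groups overlapped in both genes. Their log2 change in TE was -0.44 ± 0.32 and -0.79 ± 0.46 (edgeR adjusted p = 0.568 and 0.419), so a difference between the assays was not shown. Among neuron markers, 2 of 12 rose and none fell in RNAseq, with the summed levels given above, and none of the 12 was under the minimum of reads. Their part in the rise of Cacna1e and Cacna1g was not tested.

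In RF 1 of 24 members fell and none rose, against 15.5% of the 9403 genes that fell and 17.3% that rose. An unadjusted p under 0.05 was found for 7 members and 41.6% of all genes, and DESeq2 called none of the members. The median log2 change was 0.08 for the members and -0.01 for all genes. The standard errors lay between 0.13 and 0.57, and 23 of the 24 changes were smaller than 1 on the log2 scale. With library totals the median of all genes was -0.18, and 1034 of 3282 calls were higher, against 1630 of 3088.

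The gene that fell was Cacna1d (chr14:30040440-30352991, minus strand, 47 exons), the pore of an L-type calcium channel that opens at lower voltages than its relative Cacna1c. Untreated cultures 1, 2 and 3 gave 100, 91 and 19 reads on its CDS, and KCl cultures 4 and 5 gave 10 and 17. Normalized, these were 13.3, 14.3 and 13.6 CPM and then 7.21 and 6.37 CPM, so the untreated cultures were close together and both KCl cultures lay well below them. The fitted ratio was 0.487, a log2 change of -1.04 ± 0.31 (edgeR adjusted p = 0.00702). The call was lost with DESeq2 (adjusted p = 0.0704) and without culture 5 (0.184).

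Cacna1d RNA was at 14, 11.1 and 13.6 CPM in untreated and 9.78 and 10.9 CPM in KCl cultures. These groups did not overlap either, but the log2 change of -0.32 ± 0.31 did not pass the test (adjusted p = 0.482). TE was 1.2, 1.61 and 1.26 before and 0.925 and 0.735 after KCl, a log2 change of -0.74 ± 0.48 (adjusted p = 0.490). Cacna1c, the other L-type pore measured, had a log2 change of 0.24 ± 0.25 in RNAseq and of 0.12 ± 0.22 in RF (adjusted p = 0.517 and 0.726). The P/Q-type pore Cacna1a and the N-type pore Cacna1b, which carry the calcium for transmitter release, had values of 0.19 ± 0.22 and 0.23 ± 0.20 in RF (adjusted p = 0.564 and 0.419).

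**Figure D4:**
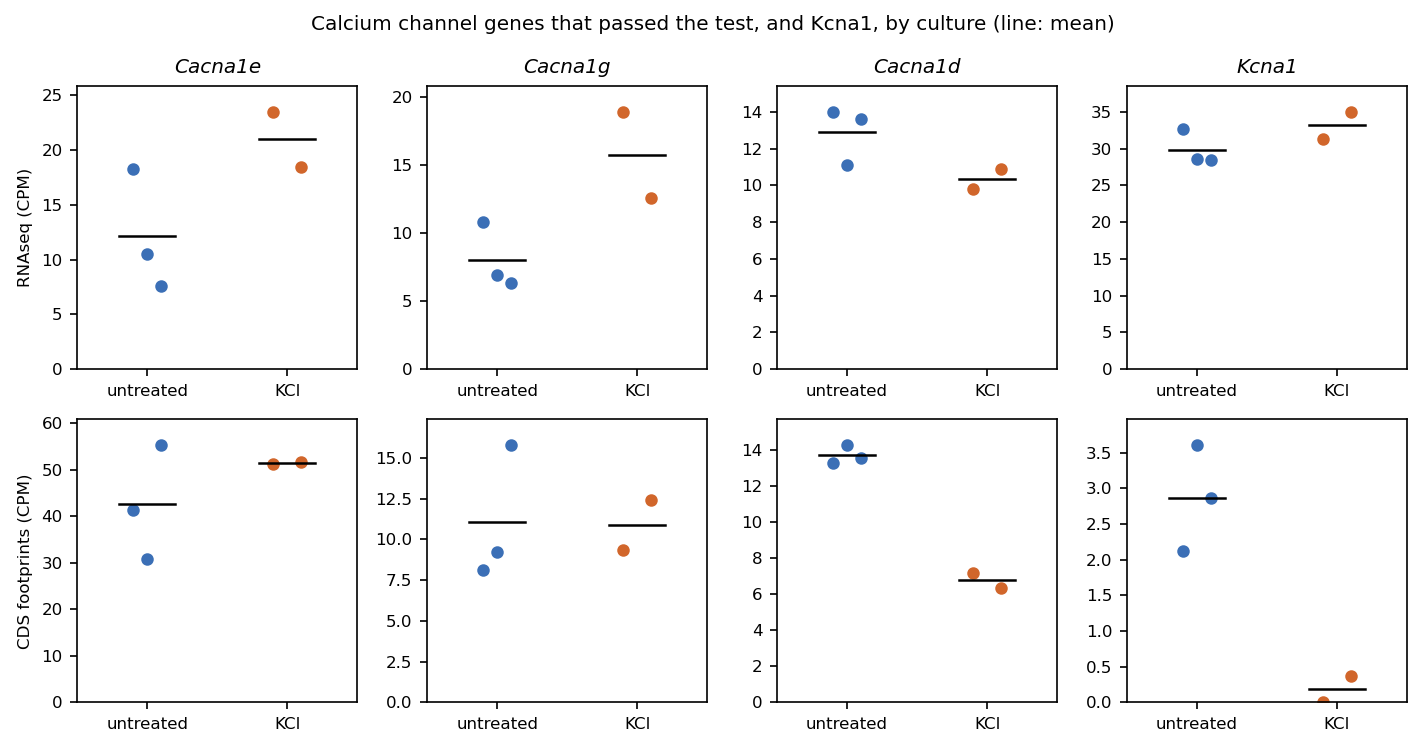
Normalized RNAseq reads (top, CPM) and CDS footprints (bottom, CPM) of Cacna1e, Cacna1g, Cacna1d and Kcna1 in each culture, with 3 untreated points, 2 KCl points and a line at each mean; every axis starts at 0. RNA of Cacna1e and Cacna1g is higher after KCl in both cultures, whereas footprints of Cacna1d (6.37 and 7.21 CPM) and Kcna1 (0 and 0.375 CPM) lie below all untreated cultures.

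The accessory calcium channel subunits gave no call. Cacnb3 footprints were at 15.0, 9.88 and 15.1 CPM in untreated and 8.65 and 7.87 CPM in KCl cultures, with a log2 change of -0.66 ± 0.31 (adjusted p = 0.0916), whereas the value for its RNA was 0.12 ± 0.18. The Cacnb3 fall passed with library totals (-0.83, adjusted p = 0.0290) and without culture 2, the lowest of the untreated (-0.89, adjusted p = 0.0132). Cacnb2 footprints were at 5.19, 3.45 and 3.59 CPM and then at 8.65 and 7.12 CPM, a change of 0.85 ± 0.39 (adjusted p = 0.0912). For both genes the groups did not overlap and the main test was not passed. Cacnb1 (0.46 ± 0.30), Cacnb4 (-0.51 ± 0.50), Cacna2d2 (-0.26 ± 0.35) and Cacna2d1 (0.03 ± 0.13) also did not pass in RF, with adjusted p between 0.258 and 0.895.

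Sodium channel genes showed no call. Scn2a RNA was at 0.623 RPKM before and 0.936 RPKM after KCl, with 34, 9 and 13 reads and then 27 and 27, and the log2 change was 0.57 ± 0.41 (adjusted p = 0.328). Untreated culture 1 lay above both KCl cultures and the other untreated cultures below them. Without culture 1 the change was 1.29 (adjusted p = 0.0313). Its footprints were close across cultures, at 21.3, 25.9 and 25.1 CPM and then 26.0 and 24.7 CPM, a change of 0.08 ± 0.21 (adjusted p = 0.800). Scn2b, a sodium channel beta subunit, had 36, 27 and 11 CDS footprints before and 4 and 27 after KCl (0.56 ± 0.40, adjusted p = 0.305).

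No potassium channel gene passed the test in RNAseq or RF. Kcnh2 RNA was at 9.89, 11.4 and 9.17 CPM before and 5.21 and 7.64 CPM after KCl (-0.65 ± 0.36, adjusted p = 0.187), and its footprints were at 4.13, 2.98 and 2.87 CPM and then 3.60 and 8.62 CPM (0.94 ± 0.43, adjusted p = 0.0899). Only 5 and 23 footprints stand behind the KCl values, and without culture 5 the RF value was 0.05. Kcnd3 RNA was at 96.3, 83.6 and 87.2 CPM and then 76.9 and 64.9 CPM (-0.33 ± 0.16, adjusted p = 0.128). The groups did not overlap, and with library totals this fall passed the test (-0.47, adjusted p = 0.0251). For Kcnd3 footprints the value was 0.09 ± 0.21. Kcnd2, its partner in the A-type current, and Kcnab2 had footprints higher in both KCl cultures than in all untreated ones (0.61 ± 0.27 and 0.66 ± 0.28, adjusted p = 0.0739 and 0.0690). In RF the values of Kcnip3, Kcna2 and Kcna4 were -0.05 ± 0.27, -0.07 ± 0.44 and 0.00 ± 0.33 (edgeR adjusted p = 0.913, 0.919 and 0.998). Footprints of the HCN channel gene Hcn2 were at 6.65, 5.64 and 8.61 CPM and then 2.88 and 5.62 CPM. These groups did not overlap, and the change was -0.50 ± 0.41 (edgeR adjusted p = 0.380).

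No member passed the test for TE, against 3.31% of 8961 genes in either direction (edgeR, the KCl effect in RF over that in RNAseq, blocked by culture). DESeq2 gave an adjusted p for 6 of the 21 members and called none of these. Without adjustment 4 of 21 members had a p under 0.05, as did 14.7% of all genes. These were Kcnh2 (1.52 ± 0.59, adjusted p = 0.150), Kcnd2 (1.13 ± 0.48, 0.208), Kcnab2 (0.95 ± 0.41, 0.229) and Cacnb3 (-0.79 ± 0.37, 0.275). The median log2 change in TE was 0.07 for the members and 0.01 for all genes. Standard errors lay between 0.28 and 0.62, with a median of 0.45 on the log2 scale, so changes of that size could not be told from 0.

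**Figure D5:**
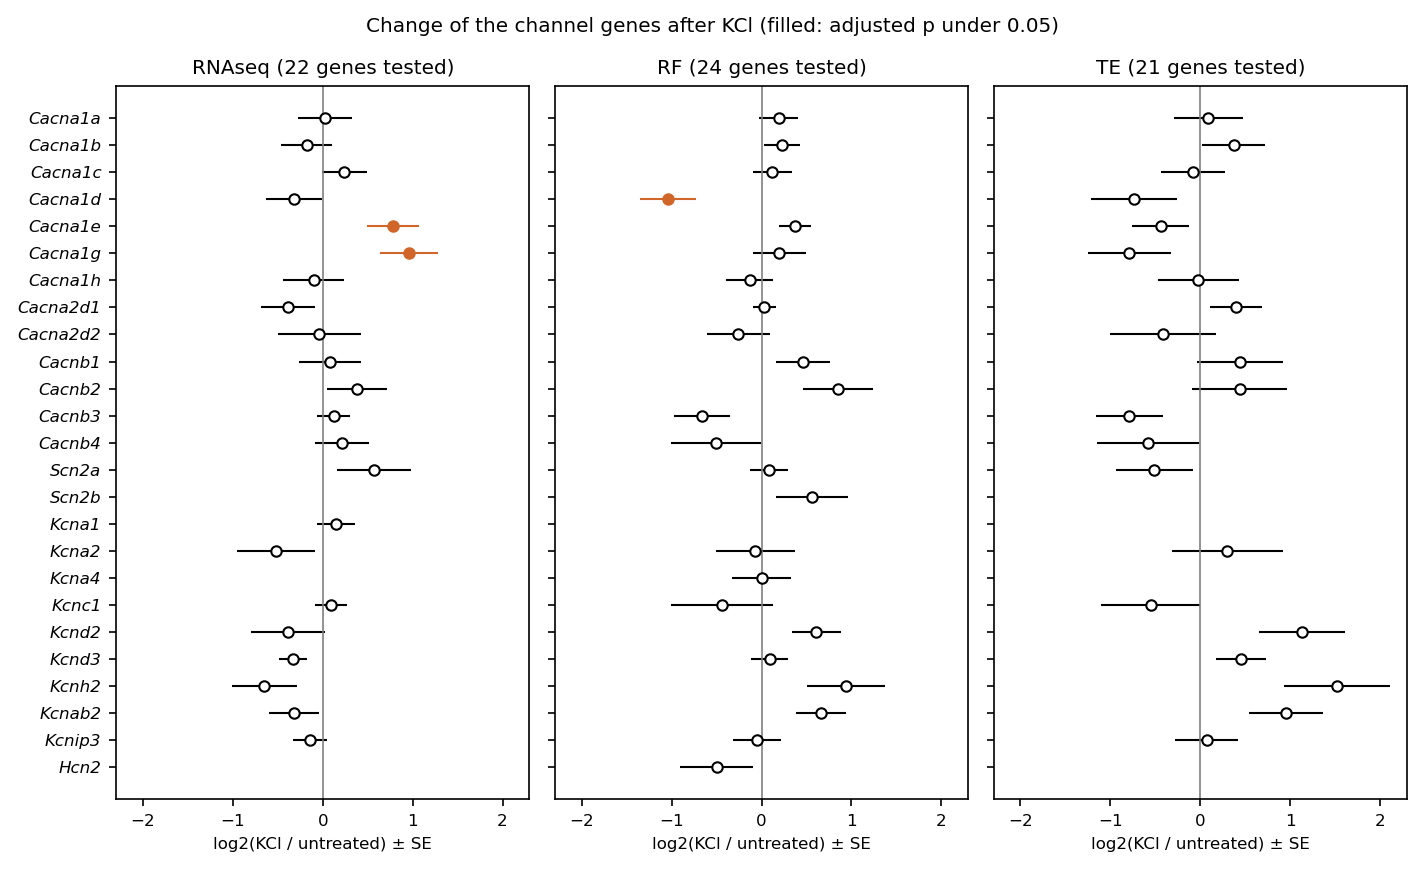
Log2 change after KCl with its standard error for each channel gene in RNAseq (22 genes), RF (24) and TE (21); filled orange points passed an adjusted p of 0.05. Cacna1e and Cacna1g are filled in RNAseq, Cacna1d in RF and none in TE.

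Kcna1 (chr6:126640397-126644796, minus strand, 2 exons) was below the RF minimum, with a mean of 8.80 CDS footprints per library, and is described because of its values, a choice made after they were seen. Its RNA overlapped between the groups, at 32.6, 28.6 and 28.4 CPM in untreated and 31.3 and 35.0 CPM in KCl cultures (0.15 ± 0.21, adjusted p = 0.646). On the CDS there were 16, 23 and 4 footprints before and 0 and 1 after KCl. Every untreated culture thus had more than both KCl cultures, although the library of untreated culture 3 was the smallest. Scaled to the normalized libraries, 43 against 1 footprints is 11.4-fold lower, with a 95% exact counting interval of 1.94 to 461, which covers counting error only.

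Footprints on the Kcna1 5′UTR were 27, 21 and 8 before and 1 and 5 after KCl, 2.48-fold lower with a counting interval of 1.07 to 7.04. On all regions Kcna1 had 43, 44 and 13 footprints before and 1 and 7 after KCl, so it passed the minimum only through the untreated cultures. There it fell by 1.81 on the log2 scale (SE 0.52, edgeR adjusted p = 0.00596), where 15.1% of genes fell. As the gene was chosen after its values were seen, these fits are descriptions and give no separate support. With a minimum of 1 read its TE change was -3.53 ± 0.98 (edgeR adjusted p = 0.0204), where 1.91% of genes fell. Without culture 4 or 5 Kcna1 met the minimum of 10 reads on the CDS, again only through the untreated cultures. Its TE change was then -3.03 and -6.47, with 1 KCl culture left in each fit. The second value rests on culture 4, which had 0 CDS footprints, so its size is not a measured ratio. Nearly all Kcna1 RNAseq reads, 279 of 297 in untreated cultures, lay on the 3′UTR, which is 36.5% of the transcript, and 10 lay on the CDS, so its RNA value is mainly that of the 3′UTR.

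Kcnc1 (chr7:46396497-46433354, plus strand, 2 exons), the other gene with most footprints ahead of the CDS, differed. Its 5′UTR footprints were at 3.59, 4.23 and 4.31 CPM in untreated and 10.1 and 6.74 CPM in KCl cultures, so the groups did not overlap and KCl was higher. Its CDS footprints were at 3.33, 3.29 and 4.31 CPM and then 4.33 and 1.5 CPM, which overlapped (-0.44 ± 0.57, adjusted p = 0.594). The 5′UTR counts were not tested, and 14 and 18 reads stand behind the KCl values. The log2 change of Kcnc1 RNA was 0.09 ± 0.18 (adjusted p = 0.758), with 79.4% of the untreated reads on the 3′UTR. On the CDS alone there were 26, 40 and 25 RNAseq reads before and 14 and 15 after KCl, and the log2 change was -1.0 (edgeR adjusted p = 0.0837).

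Of 76 further voltage-gated channel and accessory genes, 59 had a transcript and 31 passed the minimum in RNAseq, of which 2 rose and 1 fell, beside 13.9% and 11.9% of all genes. Of 31 in RF 1 rose and 2 fell, beside 17.3% and 15.5%. Of 25 in TE none passed with edgeR, beside 3.31% of all genes, and 1 gene had an unadjusted p under 0.05. DESeq2 gave an adjusted p in TE for 4 of the 25 and called none of these. Kcne1l, an accessory potassium subunit, rose in RNAseq and RF (log2 change 0.49 ± 0.17 and 0.78 ± 0.17, adjusted p = 0.0258 and 0.0003). Kcne4, an accessory subunit that restrains several potassium pores, rose in RNAseq by 3.05 ± 0.47 (adjusted p = 8.72e-07), and the calcium channel gamma-family gene Cacng5 fell in RF by 0.77 ± 0.30 (adjusted p = 0.0422).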

How the data were processed

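The authors deposited raw counts of reads per transcript region, made with bedtools 2.20.1 after trimming (Trimmomatic 0.32), removal of rRNA (STAR 2.3.1z8) and alignment to the mouse mm10 transcriptome (Bowtie2 2.2.2) (tools and versions per the submitters' processing notes). RNAseq cDNA was made from total RNA with a kit that does not mark strand, so reads of overlapping antisense genes cannot be told apart. The region letters were read as 5′UTR, CDS, 1 unnamed region and 3′UTR. Across 11114 transcripts the CDS share of RNAseq reads followed that of length (Spearman's rho 0.657, a description). Of 22534 transcripts, 22172 (98.4%) were matched to GENCODE M21 (GRCm38) for names, lengths, coordinates and sequences.

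For each gene the transcript with the most RNAseq reads was used, with RNAseq reads on all regions and RF reads on the CDS. A mean of 10 reads per library was required. KCl was compared with untreated in edgeR 4.0.16 (R 4.3.3), by quasi-likelihood F tests with robust dispersions and TMM factors set per assay. Benjamini-Hochberg adjustment ran over all genes tested. The standard error is the absolute log2 change over the square root of F, an approximation. For TE, 1 model over both assays with a culture block and an assay-by-treatment term was used, since both libraries came from the same lysate. Deviations from the group mean of same-numbered libraries correlated at r between -0.0947 and 0.0592 over 5650 genes. CPM and RPKM used TMM-scaled totals. Fits were tested on simulated data.

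Members, lists and tests were chosen with earlier results of these data known. All members were named. A change after KCl in at least 1 comparison was given for those above the minimum, and per-culture values for those called and the 3 highest and 3 lowest in TE. Per-culture values of further members, and Kcna1, were added after the values were seen. Alternatives were DESeq2 1.42.0, library totals, other minimums, all transcripts, other regions, no block, TMM over all libraries and leaving out each culture. A further KCl replicate was not analysed here, and some items are not reported here. Python 3.11.15 with pandas 2.3.3, scipy 1.17.1 and matplotlib 3.10.9 was used for tables and figures.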

Additional observations from a re-analysis of the deposited data

How the results depend on the processing

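Over all genes, calls in RNAseq numbered 2511, and 1433 with the study's RPKM filter, 4174 with all transcripts, 1102 with CDS reads alone and 1520 to 2580 without 1 culture. In RF there were 3088, and 1869 with DESeq2, 1727 with the RPKM filter, 5314 with all transcripts and 1450 to 3243 without 1 culture. In TE there were 297, and 99 with DESeq2 (which gave an adjusted p for 5313 of 8961 genes and for 6 of 21 members), 465 with all transcripts, 146 with CDS reads alone and 35 to 395 without 1 culture. The paired analysis was the main one, and with no replicate block 266 genes were called in TE and 0 members, so it changed no call of a member. Of the members, 2 were called in RNAseq, against 0 with DESeq2, the RPKM filter (3 members tested) or CDS reads alone, 1 with a minimum of 50 reads and 0 to 3 without 1 culture. In RF 1 was called, against 0 with DESeq2, the RPKM filter or a minimum of 50 reads, 2 with library totals, a minimum of 1 read or all regions, and 0 to 3 without 1 culture. Beside Cacna1d, the call with library totals was Cacnb3. With a minimum of 1 read or all regions it was Kcna1, which was chosen after its values were seen. Without culture 3 the RF calls were Cacna1d, Cacna1e (0.50, edgeR adjusted p = 0.0356) and Kcna1. Without that culture Kcna1 met the minimum, for RF as for TE, only through untreated cultures 1 and 2 (16 and 23 CDS footprints, against 0 and 1 after KCl). In TE 0 were called, against 1 (Kcna1) with a minimum of 1 read, and 0 to 1 without 1 culture (Cacnb3 at -1.17, edgeR adjusted p = 0.0478, without culture 2, and Kcna1 without culture 3). The baseline TE of the members had a median of 2.00, and 0.805 with CDS reads of RNAseq. Among single members no called change reversed in the alternatives run, 13 values lost and 6 gained a call, 60 uncalled values moved by more than their standard error, 21 of them without culture 5, and 655 did not. The cause was not tested, beyond the fewer genes or cultures in some fits. Leaving out culture 4 or 5 leaves 1 KCl culture, which is then assumed to vary like the untreated ones. Depth limits all values: RF libraries of cultures 3 and 4 each gave 24 of 27 members fewer than 40 footprints.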
